A study of Xenopus laevis with 16 samples.

Results

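The change in RNA as the late blastula at stage 9 becomes a gastrula at stage 10 was measured in whole Xenopus laevis embryos depleted of POUV proteins. The 4 arrays of PVD2 whole embryos, 2 of stage 10 and 2 of stage 9, were taken from the 16 samples of the series by the morpholino, tissue, stage and replicate in their labels. Both blastomeres of two-cell embryos had received 60 ng of morpholino each, either PVD2, a mixture against the POUV genes pou5f3.1 (Xlpou91), pou5f3.2 (Xlpou25) and pou5f3.3 (Xlpou60), or Control-MO. The course of Control-MO whole embryos, again 2 arrays of stage 10 and 2 of stage 9, was read beside them, and the other 8 samples were animal caps. Each sample pooled 3 embryos, so the spread between embryos was not measured.

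Xenopus embryos run on maternal RNA until the mid-blastula transition, after which the zygotic genome is transcribed and much of the maternal RNA is degraded. By the start of gastrulation vegetal T-box factors and Nodal signals have switched on endoderm and mesoderm regulators, the dorsal organizer secretes antagonists of BMP and Wnt ligands, and BMP signalling patterns the ventral side and the ectoderm. POUV proteins are the frog relatives of mammalian Oct4 and hold embryonic cells in an uncommitted state, in part by limiting the response to mesendoderm-inducing signals.

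Sample RNA was hybridized together with a common reference, RNA of whole embryos pooled over several stages. Levels below are log2 ratios of sample over reference for a probe, so 0 equals the reference, and they cannot be compared between genes. A change is the stage 10 minus stage 9 difference of these ratios, fitted with limma over all arrays with the replicate number as a block, and is given with its standard error (SE) and a Benjamini-Hochberg adjusted p over all probes. A probe was counted as changed at an FDR of 0.05. Between 59.8% and 63.6% of probes were well above background on the PVD2 arrays, against 58.6% and 58.7% in controls of stage 10. The controls of stage 9 had only 50% and 52% and also held the most outlier spots (1153 and 460). The 2 replicates lay on 2 slides, with stage 10 at positions 3 and 4 and stage 9 at positions 1 and 2 of each, so stage and position cannot be told apart. Control-MO arrays lay at positions 1 and 3 and PVD2 arrays at positions 2 and 4 of each slide. Level differences between the morpholinos therefore cannot be told apart from position either. The tissue label was checked against its markers: all 5 endoderm markers with a probe were well above background on both PVD2 arrays of stage 10 (3 of 5 at stage 9), as were 3 of 3 ectoderm markers, 2 of 4 mesoderm markers (tbxt and chrd.1, not gsc or myf5) and 3 of 3 germ plasm markers. Markers of differentiated muscle, blood and neurons were expected to be absent at these stages. Of the 6 with a probe, 4 were well above background on both PVD2 arrays of stage 10 (actc1, myl1, ckm and nefm) and 3 at stage 9 (not nefm). This negative check was therefore not clean. Only the globin probes hba1 and hbg1 were not well above background on any of these arrays. With whole embryos, more cells of a type and more RNA per cell cannot be told apart.

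Between stage 9 and stage 10, 1385 of 21495 probes (6.44%) changed in PVD2 embryos, 693 of them upwards (3.22%) and 692 downwards (3.22%). The rises were the larger changes: 249 probes rose by more than 1 on the log2 scale and 109 fell by as much. In control embryos 1759 of 21488 probes (8.19%) changed, 772 upwards (3.59%) and 987 downwards (4.59%), with 207 rises and 152 falls of more than 1. With the Cy3 channel alone the controls split into 626 rises and 2439 falls. These counts depended on single arrays and on the background fit. Without PVD2 stage 10 replicate 1 or 2 the PVD2 count was 575 or 650, and without PVD2 stage 9 replicate 1 or 2 it was 774 or 559. The control count was 747 without control stage 10 replicate 2, and 2778 or 1025 without control stage 9 replicate 1 or 2. With all marked spots kept in the background fit, those marked in local background included, 426 probes changed in PVD2 embryos and 621 in controls. With only the spots marked in signal kept, the counts were 1350 and 1714. Without the replicate block they were 516 and 578. Of the probes that rose in PVD2, 451 also rose in controls, which is 65.1% of the PVD2 list and 58.4% of the control list. Of the falls, 576 were shared, 83.2% of the PVD2 list and 58.4% of the control list. No probe was called in opposite directions, and the control change had the same sign for 676 of the 693 PVD2 rises and 688 of the 692 falls. The contrasts share no array, but each pair of arrays shares a slide with the pair of the other morpholino.

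Across all 21495 probes the PVD2 and control changes correlated with r = 0.818, and with r = 0.879 over the 9965 probes well above background on all 8 whole embryo arrays. These values are across probes, which are not independent replicates. Single pairs from different slides gave 0.625 and 0.747, and pairs from the same slide 0.85 and 0.639. With the log ratio computed by the scanner software in place of the one used here, the correlation over all probes was 0.549. The PVD2 pairs correlated with each other at 0.802 and the control pairs at 0.662.

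**Figure D1:**
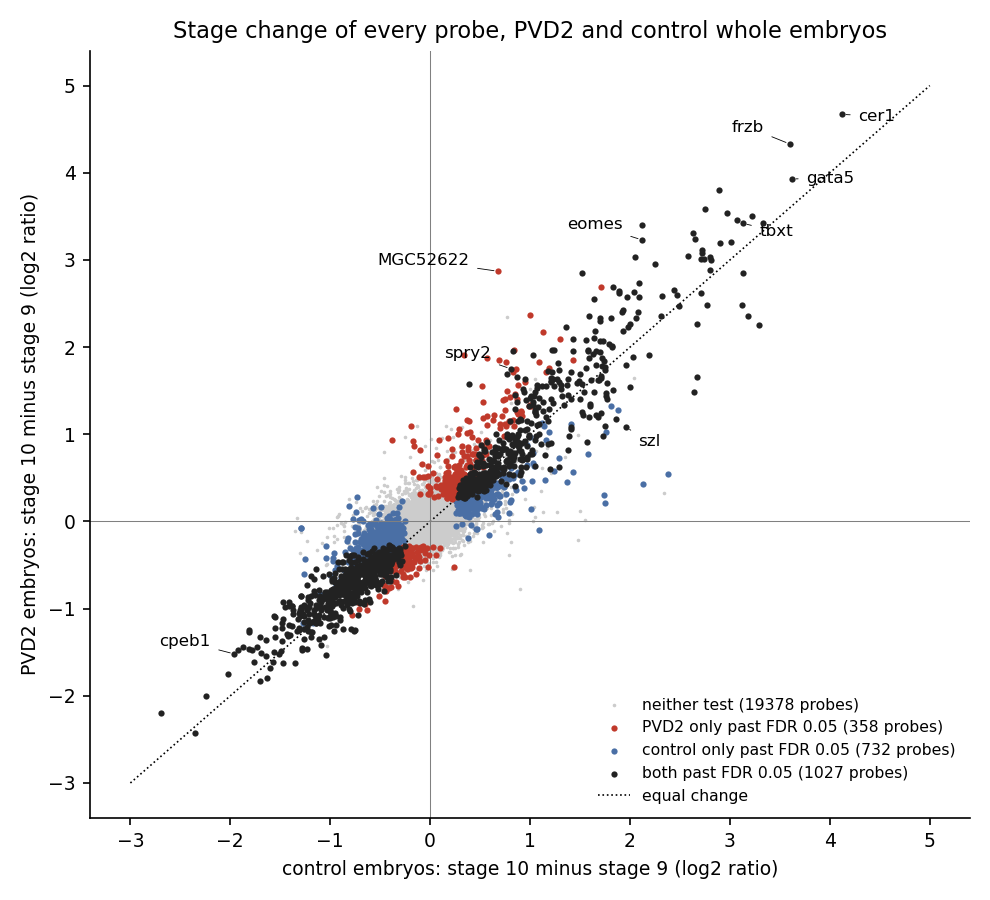
Stage change of every probe in PVD2 embryos (vertical axis) against control embryos (horizontal axis), both as log2 ratio at stage 10 minus stage 9. The probes past an FDR of 0.05 in both (451 that rose and 576 that fell) lie along the dotted line of equal change. Their place there is partly set by choosing probes called in both. Rises called in controls had medians of 0.47 in PVD2 embryos and 0.6 in controls, and falls −0.47 and −0.6. Rises called in PVD2 embryos had 0.72 and 0.6, and falls −0.63 and −0.67. The labelled probes are described in the text.

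Organizer and mesendoderm genes were among the largest rises of named probes in PVD2 embryos. The level of cer1, a secreted antagonist of Nodal, Wnt and BMP ligands made by anterior endoderm, was 1.29 and 1.35 at stage 10, against −2.85 and −3.85 at stage 9 (replicates 1 and 2). This is a change of 4.67 (SE 0.28, limma adjusted p = 0.000106), or 25.4-fold, with no overlap between the stages. In control embryos cer1 stood at 1.75 and 1.70 at stage 10 and at −2.63 and −2.14 at stage 9, a change of 4.12 (SE 0.28). For frzb, a secreted Wnt antagonist of the organizer, PVD2 embryos gave 1.74 and 2.00 at stage 10, against −1.78 and −3.14 at stage 9 (change 4.33, SE 0.40, limma adjusted p = 0.000545). The control change of frzb was 3.60 (SE 0.40), and neither cer1 nor frzb had a difference between the morpholinos that passed the test (limma adjusted p = 0.957 for each).

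The endoderm regulator gata5 had levels of 0.27 and 0.03 in PVD2 embryos at stage 10, against −3.62 and −3.94 at stage 9. Control embryos gave almost the same picture, 0.28 and 0.33 at stage 10 and −3.62 and −3.02 at stage 9. The change was 3.93 (SE 0.20, limma adjusted p = 4.67e-05) in PVD2 embryos and 3.62 (SE 0.20, limma adjusted p = 9.53e-05) in controls. Among the 15 named genes with the largest rise were also cass4, a scaffold protein of the Cas family at cell adhesions (3.80 in PVD2, 2.89 in controls), and nat8.6, the acetyltransferase Camello that acts on cell adhesion in frog embryos (3.5 and 3.22). The homeobox genes irx3 (3.42 and 3.33) and hhex (3.24 and 2.65), the FGF modulator and adhesion protein flrt3 (3.31 and 2.63) and the alkaline phosphatase alpl (3.11 and 2.72) changed alike in both. All 15 rose in both replicate pairs, which the rule that named them required. At stage 9 the second PVD2 replicate lay below the first for 11 of the 15, whereas at stage 10 this held for 6 of the 15. In controls the second replicate lay below the first for 4 of the 15 at stage 9 and 1 at stage 10.

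**Figure D2:**
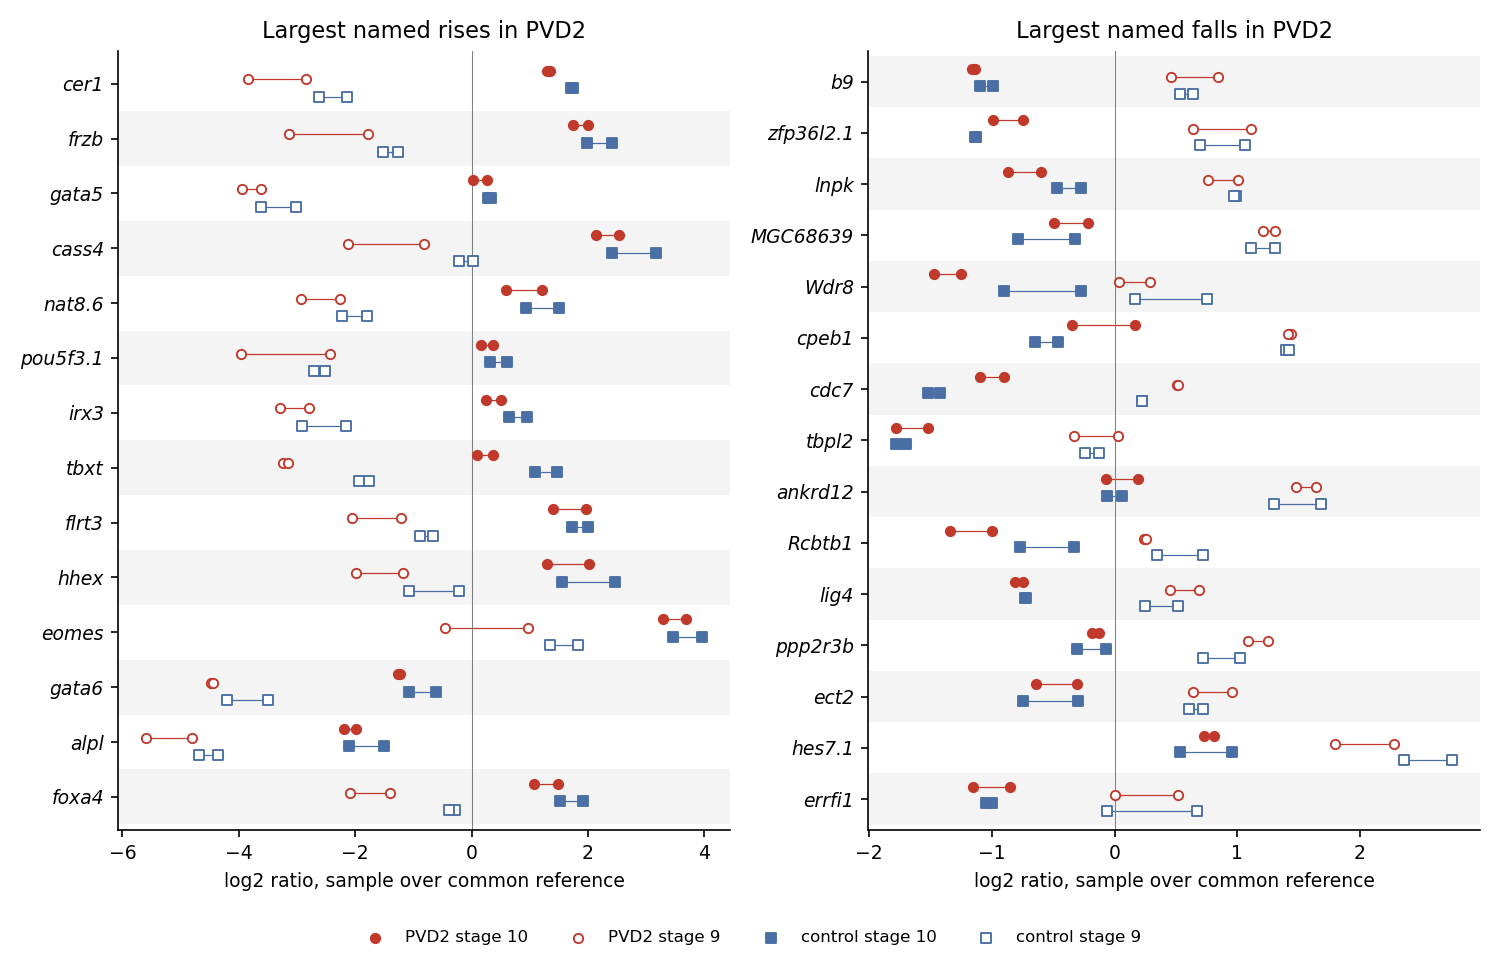
Log2 ratio of sample over common reference in every whole embryo array for 14 named genes with the largest rise (left) and 15 with the largest fall (right) in PVD2 embryos, with the 2 replicates of a group joined by a line. Filled symbols (stage 10) and open symbols (stage 9) do not overlap within PVD2 embryos for any of the 29 genes, which were selected for such a change. For tbxt the PVD2 symbols lie left of the control symbols at both stages.

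Mesoderm and organizer transcription factors held 22 genes with a probe, of which 8 rose and 1 fell in PVD2 embryos. These were the same counts as in controls, with 5 rises in common. The shares over all probes, to be set beside this and every list below, were 3.22% up and 3.22% down in PVD2 embryos. They are a low yardstick, since most probes had no gene name and the lists hold named genes. Of the 3957 probes with a name, 273 rose and 216 fell in PVD2 embryos, which are higher shares. In controls they were 3.59% up and 4.59% down. The median change of the list was 0.41 in PVD2 embryos and 0.34 in controls, against 0.01 and −0.01 over all probes. The pan-mesodermal T-box gene tbxt (Brachyury) gave 0.36 and 0.10 in PVD2 embryos at stage 10, against −3.24 and −3.15 at stage 9. In control embryos it gave 1.09 and 1.46 at stage 10, against −1.94 and −1.77 at stage 9. The change was thus 3.42 (SE 0.15, limma adjusted p = 4.67e-05) in PVD2 and 3.13 (SE 0.15, limma adjusted p = 9.53e-05) in control embryos, while the PVD2 levels lay below the control levels at both stages.

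FoxD5a, a forkhead repressor of the organizer and early neural plate, followed the same pattern. Its PVD2 levels were 0.86 and 0.52 at stage 10 and −2.18 and −1.93 at stage 9, and its control levels 1.94 and 1.88 at stage 10 and −0.10 and −0.26 at stage 9. It rose by 2.74 (SE 0.31, limma adjusted p = 0.00151) in PVD2 embryos, against 2.09 (SE 0.31) in controls. The axial midline gene foxa4 rose by 3.03 (SE 0.23, limma adjusted p = 0.000245) in PVD2 embryos and by 2.05 (SE 0.23) in controls. The T-box gene eomes stood at 3.29 and 3.68 in PVD2 embryos at stage 10, against 0.97 and −0.46 at stage 9, a change of 3.23 (SE 0.47, limma adjusted p = 0.00456). A second eomes probe changed by 2.69. The call of the first eomes probe was lost without PVD2 stage 10 replicate 2, and that of the second without PVD2 stage 9 replicate 2 or either PVD2 array of stage 10.

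Smaller rises past the test were those of snai1 (1.39), the LIM homeobox gene lhx1 of the organizer (0.97), the maternal and zygotic endoderm determinant vegt (0.88) and the paraxial mesoderm gene tbx6 (0.87). The organizer homeobox gene sia2, an immediate target of maternal Wnt signalling, was the member that fell, with 0.16 and 0.50 in PVD2 embryos at stage 10 and 0.97 and 1.06 at stage 9 (change −0.68, limma adjusted p = 0.00249). The myogenic genes myf5 and myod1 did not pass the test (0.03 and −0.57), and myf5 was not well above background at either stage.

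Endoderm transcription factors showed the highest share of rises among the 16 gene lists: 9 of 11 members rose in PVD2 embryos and none fell, and the same 9 rose in controls. The median change was 1.97 in PVD2 embryos and 1.28 in controls. The paired-type homeobox gene mix1, a direct Nodal target, had levels of 3.21 and 3.1 in PVD2 embryos at stage 10, against 1.14 and 0.07 at stage 9. In controls mix1 had 3.70 and 3.18 at stage 10, against 2.2 and 1.39 at stage 9. The stage 10 levels overlapped between the morpholinos, and both PVD2 arrays of stage 9 lay below both control arrays of stage 9. Within each slide the PVD2 level was lower than the control level at both stages.

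The change of mix1 was 2.55 (SE 0.19, limma adjusted p = 0.000238) in PVD2 embryos and 1.64 (SE 0.19, limma adjusted p = 0.00133) in controls. A second probe named mix1, which the array describes as Mix.2, changed by 1.69 and 1.5. Its stage 9 levels overlapped between the morpholinos (1.56 and 0.97 in PVD2 embryos, 1.95 and 1.31 in controls). Both PVD2 arrays thus lay below both control arrays at stage 9 with the first probe only. Within each slide the PVD2 level at stage 9 was lower with the second probe as well. The second probe may read a different transcript. The HMG box gene sox17b.1 rose by 1.97 in PVD2 embryos and 1.24 in controls, its relative sox17a by 1.63 and 1.23, the forkhead gene foxa1 by 1.97 and 1.22, and the homeobox gene mixer by 1.94 and 1.7. For gata6 the rise was 3.21 in PVD2 embryos and 3.01 in controls, though at stage 9 its probe was well above background on only 1 of 2 arrays of each group, and a second gata6 probe changed by 2.18 and 1.93. For gata4 no stage 9 array was well above background, so the size of its rise is uncertain (log2 change 1.82 in PVD2 embryos, limma adjusted p = 9.08e-05, and 1.28 in controls, limma adjusted p = 0.000296). The member bix1.3 missed the test and changed by 1.22 (limma adjusted p = 0.0698).

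Of 16 dorsal secreted antagonists and organizer signals, 9 rose in PVD2 embryos and 7 in controls, all 7 of them shared, and none fell. The median change was 0.61 in PVD2 embryos and 0.86 in controls. Besides cer1 and frzb, chrd.1 (chordin, which binds BMP ligands) gave 0.50 and 0.86 in PVD2 embryos at stage 10, against −0.80 and −1.97 at stage 9. Its change was 2.07 (SE 0.33, limma adjusted p = 0.00735) in PVD2 embryos and 1.70 (SE 0.33, limma adjusted p = 0.0161) in controls. The organizer BMP ligand admp had PVD2 levels of 0.56 and 0.79 at stage 10 and −1.23 and −1.60 at stage 9, against control levels of 1.35 and 2.07 at stage 10 and 0.33 and 0.49 at stage 9. It rose by 2.09 (SE 0.34, limma adjusted p = 0.00855) in PVD2 embryos, where it lay below both controls at each stage, and changed by 1.3 (limma adjusted p = 0.0545) in controls. The Wnt antagonist dkk1 (1.29 in PVD2, 1.19 in controls) and the TGF-beta pseudoreceptor bambi (1.05 and 0.90) also rose in both, as did the Frizzled-related crescent (0.76 and 1.15), while the BMP antagonist nog passed the test in PVD2 embryos (0.45, limma adjusted p = 0.0335) and not in controls (0.35, limma adjusted p = 0.0735). The probes of crescent and nog were not well above background in controls of stage 9. The call of chrd.1 was lost without PVD2 stage 10 replicate 2, and that of admp without PVD2 stage 9 replicate 2 or either PVD2 array of stage 10.

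The secreted regulator szl (Sizzled), made on the ventral side, stood at lower levels in PVD2 embryos at stage 10. Its levels were −0.59 and −1.25 in PVD2 embryos at stage 10 and −1.57 and −2.42 at stage 9, against 0.43 and 0.31 in controls at stage 10 and −1.58 and −1.60 at stage 9. This is a change of 1.08 in PVD2 and 1.96 in control embryos, and a second probe gave 1.33 (limma adjusted p = 0.0805) and 1.81. The difference of −0.88 had an unadjusted p of 0.017 and did not pass adjustment (limma adjusted p = 0.957). Levels of sfrp2, a secreted Frizzled-related protein, were −2.96 and −2.90 in PVD2 embryos at stage 10 and −3.54 and −2.96 at stage 9, against 0.07 and −0.56 in controls at stage 10 and −0.44 and −1.70 at stage 9. The stage change of sfrp2 did not pass the test in either.

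Among Nodal, Vg1 and TGF-beta ligands and regulators, 2 of 16 rose and 3 fell in PVD2 embryos, with a median of 0.03, and 1 rose and 2 fell in controls, with a median of −0.09. The Vg1-like ligand gdf3 (Derrière) rose by 1.72 (SE 0.27, limma adjusted p = 0.0062) in PVD2 embryos, where it had 2.75 and 2.87 at stage 10 and 1.41 and 0.78 at stage 9. Its control change of 0.83 missed the test (limma adjusted p = 0.0986), with levels of 2.58 and 2.86 at stage 10 and 2.01 and 1.76 at stage 9. The organizer ligand nodal3.1 rose by 1.16 (SE 0.21, limma adjusted p = 0.013) in PVD2 embryos, against 0.63 in controls. The calls of gdf3 and nodal3.1 were lost without the stage 9 or the stage 10 array of PVD2 replicate 2. Falling members were the early Nodal ligands nodal5 (−0.90 in PVD2, −1.01 in controls) and nodal6 (−0.79 and −0.89), whose transcription begins before the mid-blastula transition, and the maternal ligand bmp2 (−0.81 in PVD2, −0.73 in controls, limma adjusted p = 0.0548). The call of nodal5 was lost on leaving out any 1 of 5 whole embryo arrays and that of bmp2 on leaving out any 1 of 3.

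The ventral BMP response genes counted 6 rises and no fall among 13 members in both PVD2 and control embryos, 5 of them shared, with medians of 0.50 and 0.42. The probe of gata3, a GATA factor of ventral ectoderm, had −1.65 and −0.84 in PVD2 embryos at stage 10 and was not well above background at stage 9. It rose in PVD2 embryos (log2 change 2.85, limma adjusted p = 0.000237) and in controls (1.52, limma adjusted p = 0.00338), where the stage 10 levels were −2.52 and −1.34 and stage 9 was again not well above background, so neither size is exact. Its relative gata2 rose by 1.63 in PVD2 embryos and by 1.27 in controls. The Vent homeobox repressors ventx2.2 (2.23 and 1.98) and ventx1.1 (1.44 and 1.76) rose in both, and ventx3.2 by 1.16 in PVD2 embryos against 0.37 in controls (limma adjusted p = 0.238). The stress regulator xbp1, a transcription factor of the unfolded protein response, rose by 1.22 and 1.53. The calls of ventx2.2 and ventx1.1 were each lost on leaving out any 1 of 3 PVD2 arrays. For ventx1.1 the PVD2 levels were −0.18 and −1.05 at stage 10 and −2.03 and −2.09 at stage 9, all below the control levels of the same stage, 0.83 and 0.88 at stage 10 and −0.83 and −0.99 at stage 9.

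In the FGF pathway 3 of 15 members rose in PVD2 embryos and none fell, with a median of 0.28, against 3 rises, 1 fall and 0.57 in controls. The feedback inhibitor spry2 had levels of 0.95 and 1.45 in PVD2 embryos at stage 10, against −0.66 and −0.44 at stage 9. In controls it had 1.43 and 1.85 at stage 10, against 0.70 and 0.96 at stage 9. PVD2 levels of spry2 were below both controls at stage 9 and overlapped the lower control value at stage 10. Within each slide they were below the control at both stages. The change was 1.75 (SE 0.09, limma adjusted p = 6.08e-05) in PVD2 embryos and 0.81 (SE 0.09, limma adjusted p = 0.00133) in controls, and a second probe gave 1.69 and 0.77. The ligand fgf8 rose by 1.22 (SE 0.22, limma adjusted p = 0.0122) in PVD2 embryos, with 0.64 in controls (limma adjusted p = 0.122), and flrt3 was the other. The call of fgf8 was lost without the stage 10 or the stage 9 array of PVD2 replicate 2. Of the Wnt genes, 4 of 22 rose in PVD2 embryos and none fell (median −0.02, against 0.05 in controls with 5 rises and 1 fall). They were the receptors fzd8 (1.97 in PVD2, 1.58 in controls), fzd2 (1.5 and 0.77, the control change not past the test) and fzd7 (1.34 and 1.34) and the Wnt target sp5l (2.04 and 1.79), the call of fzd2 again lost without either array of PVD2 replicate 2.

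**Figure D3:**
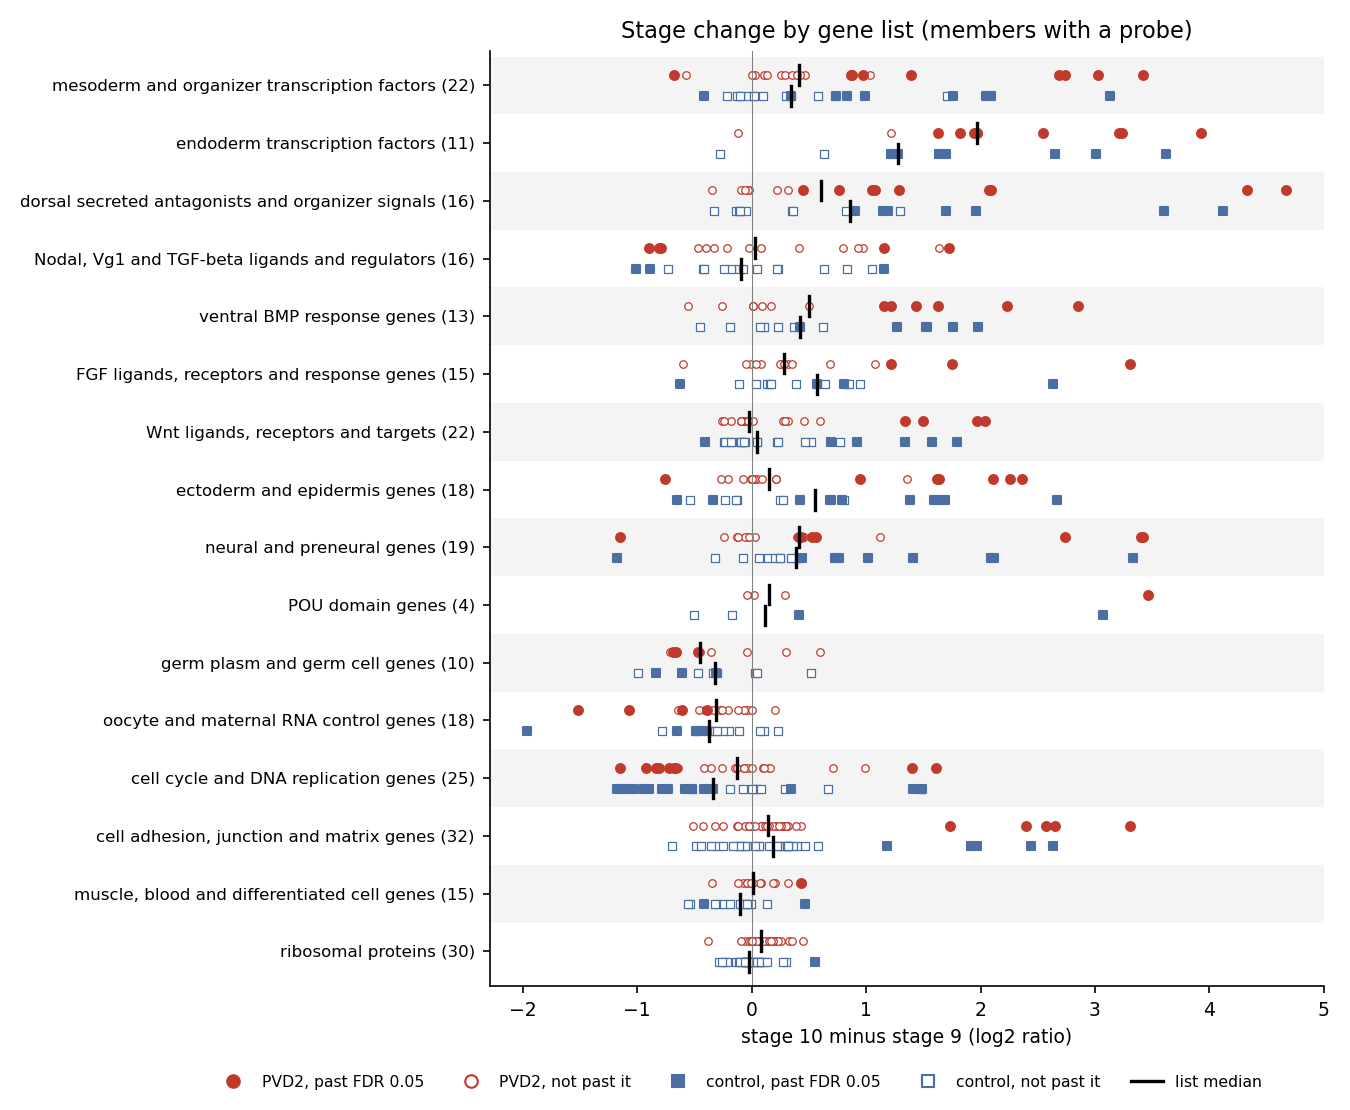
Stage change (log2 ratio at stage 10 minus stage 9) of every list member with a probe, PVD2 embryos above and control embryos below in each band, with filled symbols past an FDR of 0.05 and a bar at the list median. The endoderm transcription factors have the highest median in PVD2 embryos (1.97), and the ectoderm and epidermis genes a PVD2 median of 0.15 against 0.55 in controls.

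Ectoderm and epidermis genes counted 6 rises and 1 fall among 18 members in PVD2 embryos, and 9 rises and 2 falls in controls. All 6 PVD2 rises were shared, and the median change was 0.15 in PVD2 embryos and 0.55 in controls. The epidermal keratin krt70 had levels of −5.54 and −5.55 in PVD2 embryos at stage 10 and −7.97 and −7.86 at stage 9, a change of 2.36 (SE 0.31, limma adjusted p = 0.00289). In controls it stood at −4.49 and −4.03 at stage 10 and at −6.45 and −5.23 at stage 9 (change 1.59, SE 0.31), so the PVD2 level was lower at both stages. A second probe named krt70 did not pass the test (0.80, limma adjusted p = 0.206). The homeobox genes dlx3 (2.11 in PVD2, 1.64 in controls) and dlx5 (1.62 and 1.69), the Krüppel-like gene klf17 (1.64 and 1.38) and the LIM homeobox gene lhx5 (0.95 and 0.79) rose in both, and the Krüppel-like gene klf2 fell in both (−0.76 and −0.65).

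The zinc finger gene Sall1 rose by 2.26 (SE 0.36, limma adjusted p = 0.00742) in PVD2 embryos and by 2.67 in controls, at levels far apart: 0.09 and −1.1 in PVD2 embryos at stage 10, against 1.67 and 1.85 in controls, and −3.06 and −2.47 in PVD2 embryos at stage 9, against −0.65 and −1.17 in controls. The 3 members that rose past the test in controls and not in PVD2 embryos were Foxi3, a forkhead gene of the ectoderm (0.05 in PVD2, 0.68 in controls), the epidermal and neural crest factor tfap2a (0.09 and 0.42) and sall4 (0.21 and 0.69). For none of the 3 did the difference pass adjustment. The calls of Sall1 and dlx3 were each lost without PVD2 stage 10 replicate 1 and without 1 of the PVD2 arrays of stage 9.

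Of 19 neural and preneural genes, 7 rose and 1 fell in PVD2 embryos (median 0.41), against 8 and 1 in controls (median 0.39), with 6 rises shared. The zinc finger gene zic1 (opl on the array) had levels of −0.39 and −0.20 in PVD2 embryos at stage 10 and −2.01 and −0.83 at stage 9, against 1.34 and 1.59 in controls at stage 10 and −0.15 and 0.25 at stage 9. The zic1 change of 1.12 in PVD2 embryos missed the test (limma adjusted p = 0.078), and that of 1.41 in controls passed it (limma adjusted p = 0.0285). The SoxB1 gene sox3 changed by 0.41 in PVD2 embryos and 0.44 in controls, both past the test, and sox2 by −0.03 and 0.14, neither past it. The falling member was gmnn (Geminin), which is also counted with the cell cycle genes.

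Among the POU domain genes, 1 of 4 with a probe rose. The zygotic POUV gene pou5f3.1 (Xlpou91) had levels of 0.37 and 0.16 in PVD2 embryos at stage 10, against −2.43 and −3.96 at stage 9, and of 0.32 and 0.60 in controls at stage 10, against −2.71 and −2.52 at stage 9. It rose by 3.46 (SE 0.39, limma adjusted p = 0.00146) in PVD2 embryos and by 3.07 (SE 0.39, limma adjusted p = 0.00228) in controls. The maternal POUV gene pou5f3.3 (Xlpou60) stayed between 1.82 and 1.85 on all 4 PVD2 arrays, a change of 0.02 (SE 0.18, limma adjusted p = 0.977), whereas controls had 0.98 and 1.62 at stage 10 and 1.84 and 1.76 at stage 9 (change −0.50, limma adjusted p = 0.14). A morpholino that blocks translation need not lower the RNA of its target, so these probes do not test the depletion, and no probe was matched to pou5f3.2. The Oct1 gene pou2f1 changed by 0.29 in PVD2 embryos (limma adjusted p = 0.0975) and 0.41 in controls (limma adjusted p = 0.0217), and pou3f4 by −0.04 in PVD2 embryos, with control stage 9 not well above background.

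Among the 15 named genes with the largest fall in PVD2 embryos were regulators of stored RNA and of the cell cycle. The level of cpeb1, which controls polyadenylation and translation of stored maternal RNA, was −0.35 and 0.17 in PVD2 embryos at stage 10, against 1.44 and 1.41 at stage 9, a change of −1.52 (SE 0.15, limma adjusted p = 0.000681). In controls it was −0.46 and −0.65 at stage 10, against 1.40 and 1.42 at stage 9 (change −1.96, SE 0.15). The stage 9 levels of cpeb1 lay between 1.40 and 1.44 on all 4 arrays, and both PVD2 levels at stage 10 lay above both control levels. The test of the difference gave 0.45 (SE 0.21, unadjusted p = 0.0615, limma adjusted p = 0.957).

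Other falls among the 15 largest were those of zfp36l2.1, a zinc finger protein of a family that promotes RNA decay (−1.75 in PVD2, −2.02 in controls), and tbpl2, the TATA-binding protein paralogue of the oocyte (−1.5 and −1.56). The kinase cdc7, which starts DNA replication, fell by 1.51 and 1.69, the DNA ligase lig4 by 1.35 and 1.11, and the cytokinesis GTPase activator ect2 by 1.27 and 1.19. The hairy-related repressor hes7.1 fell by 1.27 in PVD2 embryos, with 0.73 and 0.81 at stage 10 and 2.28 and 1.80 at stage 9, and by 1.81 in controls. The EGF receptor inhibitor errfi1 fell by 1.26 and 1.33. All 15 fell in both replicate pairs, which the rule that named them required. Of their 15 calls, 12 held whichever 1 of the 8 whole embryo arrays was left out, the exceptions being Wdr8, ppp2r3b and hes7.1. A probe named only by its description, cyclin B5, was looked at after its values were seen. It had −0.76 and −0.68 in PVD2 embryos at stage 10, against 1.51 and 1.45 at stage 9 (change −2.2, SE 0.16, limma adjusted p = 0.000225), and a control change of −2.69.

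In the list of oocyte and maternal RNA control genes, 4 of 18 fell in PVD2 embryos and none rose (median −0.31), against 6 falls in controls (median −0.37), 3 of them shared. Besides cpeb1 these were the egg envelope glycoprotein zpd (−1.07 in PVD2, −0.78 in controls, where stage 9 replicate 1 had no value), the embryonic poly(A)-binding protein pabpn1l (−0.61 and −0.65) and the deadenylase parn (−0.39 and −0.48). The meiotic kinase mos changed by −0.41 and −0.36, not past the test in either. Germ plasm and germ cell genes counted 3 falls of 10 in both PVD2 and control embryos, the same 3, with medians of −0.46 and −0.32. The translational repressor nanos1 gave −0.03 and −0.51 in PVD2 embryos at stage 10, against 0.49 and −0.10 at stage 9, and fell within each pair (change −0.47, SE 0.07, limma adjusted p = 0.00743). The others were velo1 (−0.66 and −0.61) and plin2 (−0.69 and −0.84), both of RNAs found in the vegetal cortex of the oocyte. Except for cpeb1, the calls of both lists were lost without 1 or more PVD2 arrays, and second probes of plin2 (0.25) and pabpn1l (−0.24) did not pass the test. For nanos1 none of the 4 PVD2 arrays had the second probe well above background.

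Cell cycle and DNA replication genes counted 7 falls and 2 rises among 25 members in PVD2 embryos, against 12 falls and 3 rises in controls. All 7 falls were shared, and the median was −0.13 in PVD2 embryos and −0.34 in controls. Of these 25, the replication licensing inhibitor gmnn fell most, with −0.14 and −0.34 in PVD2 embryos at stage 10, against 0.95 and 0.88 at stage 9 (change −1.15, SE 0.09, limma adjusted p = 0.000245), and −1.18 in controls. The cyclin B5 probe described above, whose gene is on the list, was named only by its description and was not counted among the 25. It fell by more (−2.2 in PVD2, −2.69 in controls). The embryonic cyclin ccna1 (−0.92 in PVD2, −1.09 in controls), the mitotic cyclin ccnb1 (−0.84 and −1.15), the replication helicase subunit mcm3 (−0.81 and −0.95) and the kinases aurka (−0.72 and −0.78), chek1 (−0.68 and −0.90) and plk1 (−0.66 and −0.73) fell in both.

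The 5 members that fell past the test in controls only were ccnb2 (−0.42 in PVD2, −1.04 in controls), cdk1 (−0.15 and −0.52), pcna (−0.03 and −0.58), mcm2 (−0.13 and −0.42) and mcm5 (−0.26 and −0.34). The unadjusted p of the difference was 0.00437 for ccnb2, 0.00922 for cdk1, 0.0102 for pcna and 0.0395 for mcm2, and 0.459 for mcm5, and none passed adjustment. The rises in PVD2 embryos were those of the histone H2afx (1.61 and 1.49) and the inhibitory kinase wee1 (1.40 and 1.41), whereas the maternal kinase wee2 changed by −0.26 and −0.41. Control stage 9 replicate 1 had no value for wee1 and ccnb1, and the call of H2afx was lost without PVD2 stage 10 replicate 1 or PVD2 stage 9 replicate 2.

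Among 32 cell adhesion, junction and matrix genes, 5 rose and none fell in PVD2 embryos and the same 5 rose in controls (medians 0.14 and 0.19). The ephrin receptor epha4 (pag on the array) had levels of −0.18 and −0.21 in PVD2 embryos at stage 10, against −2.90 and −2.78 at stage 9. In controls it had 0.85 and 0.96 at stage 10 and −1.76 and −1.31 at stage 9. The change was 2.65 (SE 0.19, limma adjusted p = 0.000209) in PVD2 embryos and 2.44 in controls, at PVD2 levels below the controls at both stages. The hyaluronan synthase Has1 showed the same order, with −0.84 and −0.70 in PVD2 embryos at stage 10 and 0.19 and 0.43 in controls (change 2.40 and 1.92), whereas has2 stood at 1.90 and 1.96 in PVD2 embryos and 1.99 and 1.90 in controls at stage 10 (change 2.57 and 1.97). The chemokine receptor cxcr4 rose by 1.73 in PVD2 embryos and 1.18 in controls, and flrt3 was the fifth. The cadherins cdh1 (0.21 and 0.27) and cdh3 (0.28 and 0.06), the catenin ctnnb1 (0.32 and 0.47) and fibronectin fn1 (−0.02 and 0.15) did not pass the test in either.

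Of 30 ribosomal protein genes none changed past the test in PVD2 embryos (median 0.09, and −0.0 with the Cy3 channel alone), and 1 rose in controls (median −0.03). Of 15 muscle, blood and differentiated cell genes, the tropomyosin tpm1 rose in PVD2 embryos (0.43, limma adjusted p = 0.0149) and in controls (0.47), and no other member rose or fell in PVD2 embryos. Its call was lost on leaving out any 1 of the 4 PVD2 arrays. With 6.44% of all probes called in PVD2 embryos, and a higher share of named probes, the counts of these lists of 30 and 15 are no result about their members.

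Since probes called in one group can be favoured by the noise of that group, probes were also chosen on 1 slide of control embryos, by a change of more than 1, and read in both groups on the other slide. Only probes well above background on every whole embryo array of the choosing slide, PVD2 arrays included, were used. Control risers not detected in PVD2 embryos could therefore not enter. The 241 probes that rose on slide 1 had a median change on slide 2 of 1.54 in PVD2 embryos and 1.34 in controls, and 97.5% of them moved the same way in PVD2 and 96.3% in controls. The 222 probes that rose on slide 2 had medians on slide 1 of 1.35 in PVD2 embryos and 1.39 in controls. Among probes detected in both groups, those chosen for a rise in controls thus mostly rose in PVD2 embryos too. For the 160 and 236 probes that fell, the PVD2 medians were −1.01 and −0.89 and the control medians −1.15 and −0.94.

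**Figure D4:**
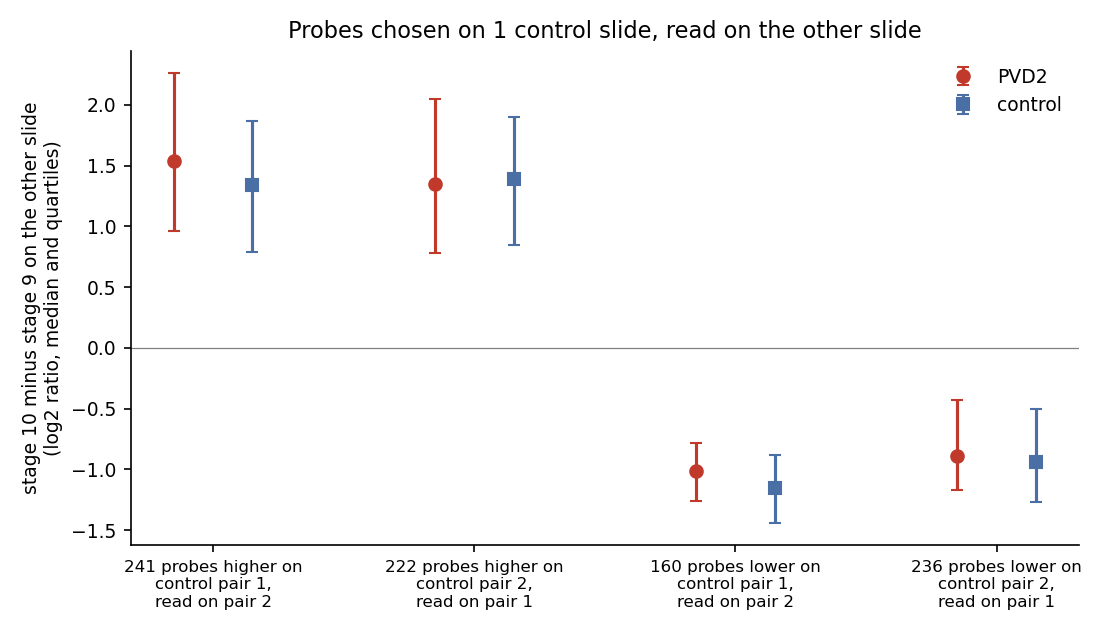
Median stage change (log2 ratio at stage 10 minus stage 9, bars from the first to the third quartile) on one slide of probes chosen on the other slide of control embryos. All were well above background on every whole embryo array of the choosing slide. PVD2 medians (1.54 and 1.35 for rises, −1.01 and −0.89 for falls) lie beside control medians of 1.34, 1.39, −1.15 and −0.94, with quartiles that overlap.

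Levels of these same probes differed, though morpholino and position on the slide cannot be told apart. On slide 2 the 241 rising probes were lower in PVD2 than in control embryos by a median of 0.44 at stage 10 (a PVD2 minus control difference of −0.44) and of 0.81 at stage 9 (−0.81), and 78.8% and 93.8% of them were lower in PVD2. On slide 1 the 222 rising probes had medians of −0.27 at stage 10 and −0.28 at stage 9, with 74.8% and 79.6% lower in PVD2. The falling probes went the other way. On slide 2 the 160 falling probes had medians of 0.18 at stage 10 and 0.05 at stage 9, with 30.6% and 43.8% lower in PVD2. On slide 1 the 236 falling probes had medians of 0.11 and 0.03, with 30.9% and 41.5% lower in PVD2. Over all probes of the same detection the medians were 0.02 and −0.02 on slide 2, and 0.01 and −0.01 on slide 1. Of all these probes, 46.3% were lower in PVD2 at stage 10 and 52.8% at stage 9 on slide 2. On slide 1 the share at stage 10 was 48.2%. The control arrays of stage 9, with which the stage 9 levels are compared, had the fewest probes above background and the most outlier spots, and the part of this in the result was not tested. Probes were also chosen in the other direction, under the same detection rule. The 244 probes chosen as rising on PVD2 slide 1 had medians on slide 2 of 1.66 in PVD2 embryos and 1.34 in controls, and 245 chosen on slide 2 had 1.35 and 1.33 on slide 1. Of the 127 and 115 probes chosen as falling, 100% and 97.4% fell again in PVD2 embryos on the other slide. In controls 99.2% and 97.4% of them fell there.

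Whether a change differed between the morpholinos was tested as an interaction. No probe passed (0 of 21488, limma, smallest adjusted p = 0.239). An unadjusted p under 0.05 was found for 874 probes (4.07%). That share is below the one that no difference at any probe would give on average. The differences that follow are the extremes of a test with no call. Without control stage 9 replicate 1 or 2 the same test made 16 or 20 calls, without PVD2 stage 9 replicate 1 it made 1, and on the authors' value table of 16 arrays it made 31. The nearest to a call was hsp70, a heat shock chaperone gene, whose levels were 3.04 and 2.40 in PVD2 embryos at stage 10 and 1.61 and 0.67 at stage 9, against 1.47 and 0.71 in controls at stage 10 and 1.1 and 0.30 at stage 9. It rose by 1.58 (SE 0.10) in PVD2 embryos and by 0.39 (SE 0.10) in controls, a difference of 1.19 (SE 0.14, unadjusted p = 1.97e-05, limma adjusted p = 0.239). Genes of this family are alike in sequence and may share signal. The next was the desmosomal protein pkp3, with −1.37 and −1.61 in PVD2 embryos at stage 10 and −2.38 and −2.45 at stage 9, against −2.23 and −2.38 in controls at stage 10 and −2.30 and −2.49 at stage 9. That probe changed by 0.93 and 0.09, whereas a second pkp3 probe gave −0.00 and 0.10. The difference of spry2 was 0.94 (SE 0.13, unadjusted p = 7.2e-05, limma adjusted p = 0.309) with its first probe and had an unadjusted p of 0.00077 with its second.

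Further genes with the larger change in PVD2 embryos were the autophagy gene Gabarapl1 (1.91 in PVD2, 0.34 in controls, where stage 9 was not well above background), the zinc finger gene glis2 (1.1 and −0.19, the second being 0.61 with the log ratio of the scanner software) and the lipid phosphatase Ppap2b (0.64 and −0.02, and 0.21 and −0.06 with a second probe). MGC52622, which the array describes as similar to syntenin, is marked in the plot of all probes and was chosen after its values were seen. It changed by 2.87 in PVD2 embryos and 0.68 in controls (limma adjusted p of the difference 0.957). The probe of syntenin itself, sdcbp, changed by 0.03 and 0.05. At the other end stood Arl13b, a small GTPase of cilia, with −1.04 and −0.43 in PVD2 embryos at stage 10 and −0.65 and −0.61 at stage 9, against 0.89 and 1.15 in controls at stage 10 and −0.23 and 0.07 at stage 9. Its change was −0.10 (SE 0.13) in PVD2 embryos and 1.09 (SE 0.13, limma adjusted p = 0.00163) in controls, a difference of −1.20 (unadjusted p = 0.000151, limma adjusted p = 0.428). The phosphate transporter Slc34a2 had −1.28 and −0.61 in PVD2 embryos at stage 10 and −1.38 and −0.92 at stage 9, against 1.17 in both controls at stage 10 and −0.72 and −0.43 at stage 9 (change 0.21 and 1.75), with 1 of 2 arrays of each group well above background at stage 9. In both genes the 2 stages overlapped in PVD2 embryos and were apart in controls. Within the PVD2 pairs Arl13b changed by −0.39 and 0.18 and Slc34a2 by 0.11 and 0.32. Lower in change in PVD2 embryos were also the MADS box factor mef2a (0.19 and 0.67), the growth factor pdgfa (−0.23 and 0.53), the RNA-binding protein hnrnpk (0.41 and 0.85) and the cytoskeletal protein add3 (0.62 and 0.96).

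**Figure D5:**
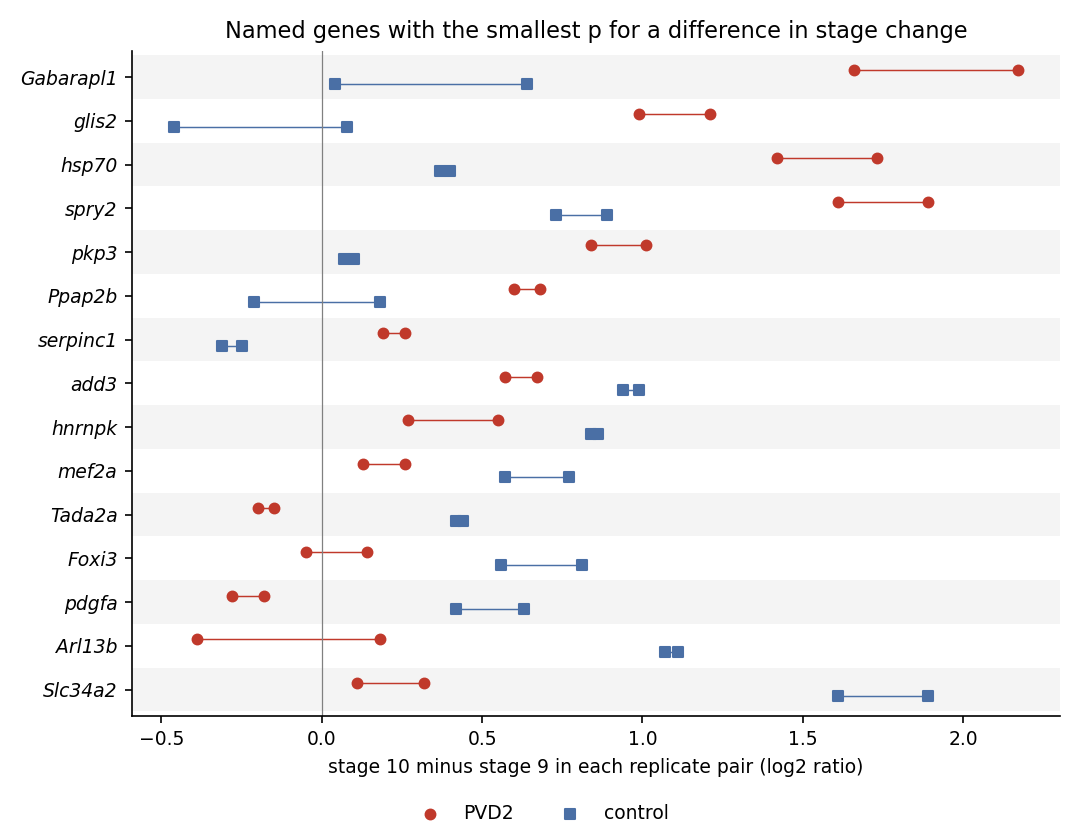
Stage change (log2 ratio at stage 10 minus stage 9) in each replicate pair for 7 named genes high and 8 low in the difference between PVD2 and control embryos, ranked by unadjusted p and ordered by the difference. The pairs of the 2 morpholinos do not overlap for any of the 15 genes, which were selected for this, and no difference passed adjustment.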

How the data were processed

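Samples were grouped by the morpholino, tissue, stage and replicate in their labels. Per the labels, sample RNA carried Cy3 and the pooled reference Cy5, with no dye swap. From the scans of these 2-colour Agilent arrays the authors took spot values in Feature Extraction 9.5.1.1. Mean spot signals and median local backgrounds were deposited as intensity, without normalization. Other deposited values served as alternatives. The authors' log10 ratio per spot was background subtracted and dye normalized. Their log10 value table, whose computation is not given in the sources used here, followed sample over reference in differences between arrays (r 0.957 to 0.998 across probes). For 1 of the 16 samples, an animal cap, that table was the only source used.

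Background was corrected by normexp (offset 50) and ratios by loess within arrays. Spots marked as outliers in signal or background were left out of the normexp fit. This was decided after seeing that with them the ratios of some arrays were compressed (median absolute log2 ratio of bright probes 0.203 with them against 0.488 on PVD2 stage 10 replicate 2). The 1417 control spots were left out and spots of a probe averaged, giving 21495 probes. Of these 3957 had a gene name, 2262 by symbol and 1363 by gene number in RefSeq. A further 105 carry a mouse symbol given by the study, and a probe may read both homeologues of a gene.

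limma 3.58.1 in R 4.3.3 fitted 8 group means over 15 arrays (5 residual degrees of freedom), with the replicate number within a tissue, which is the slide, as a block. Same-numbered whole embryo arrays share a slide and deviated together in all 6 group pairs (r 0.585 to 0.815). The labels do not say that replicates came from separate clutches, so the p-values cannot be read as covering the spread between clutches. They measure the scatter among these samples that is left after the shift shared by a slide is removed. That scatter is pooled over all 8 groups, animal caps included. The fit was tested on simulated data with normal noise and an additive slide effect, as the fit itself assumes. That simulation held no position effect and no outlier spots, so it does not bear on those. If neither array of a stage had a probe well above background, the size of its change is uncertain. No read depth exists for arrays, and precision is limited by how many there are.

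Genes were named by rule: the 15 largest rises and 15 largest falls past the test in both pairs and well above background, the 8 highest and 8 lowest differences by p, the 4 largest changes past the test of each list, and the POU genes. Of these and the list members, 2 are counted but not reported here. Other list members are named where counts are described. Members and lists were chosen with earlier results of these data known.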

Additional observations from a re-analysis of the deposited data

Results flagged for a closer look

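Among the named genes, 4 had both replicate pairs of PVD2 embryos on one side of no change between the stages and both control pairs on the other. The share of all probes with this pattern is not given here, so the count is no result about these genes. The antithrombin gene serpinc1, an inhibitor of blood clotting proteases, had levels of −2.36 and −2.06 in PVD2 embryos at stage 10 and −2.55 and −2.32 at stage 9, against −2.37 and −2.1 in controls at stage 10 and −2.11 and −1.79 at stage 9. Its change was 0.23 in PVD2 embryos and −0.28 in controls, a difference of 0.51 (unadjusted p = 0.000456, limma adjusted p = 0.806), and no control array of stage 9 was well above background. Tada2a, a subunit of histone acetyltransferase complexes, had −0.47 and −0.42 in PVD2 embryos at stage 10 and −0.33 and −0.23 at stage 9, against 0.39 and 0.44 in controls at stage 10 and −0.04 and 0.0 at stage 9. Its difference was −0.6 (unadjusted p = 0.00464, limma adjusted p = 0.957).

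The growth factor pdgfa had −0.38 and −0.69 in PVD2 embryos at stage 10 and −0.2 and −0.41 at stage 9, against 0.27 and 0.17 in controls at stage 10 and −0.37 and −0.25 at stage 9. Its difference was −0.76 (unadjusted p = 0.00421, limma adjusted p = 0.957). The maternal POUV gene pou5f3.3 had a difference of 0.52 (unadjusted p = 0.0721, limma adjusted p = 0.957), with a PVD2 change of only 0.02, which is flat. None of the 4 differences passed adjustment over all probes, and 3 of the 4 genes were named for a low p of this same difference.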

How the results depend on the processing

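Alternatives changed 1 choice at a time, except that the authors' table of 16 arrays also adds 1 cap array. The replicate number, which pairs arrays of a slide, was part of the fit: with no replicate block 516 probes were called in PVD2 embryos and 578 in controls. PVD2 counts that moved by over 1.5 times were 426 with the background fit over all spots (added after seeing the data), 2604 with PVD2 whole embryo arrays only, 484 with no moderation and 2254 with array weights. Control counts were 2957 with median centring, 3065 with Cy3 alone, 2762 with the Feature Extraction log ratio, 2974 with the authors' 16-array table, 621 with the background fit over all spots, 1104 with whole embryo arrays only, 644 with no moderation and 835 with array weights. The other settings gave 933 to 1519 PVD2 calls and 1263 to 2428 control calls. Cy3 alone also moved the control split to 626 higher and 2439 lower, against 772 and 987. Differences called were 1 with no background correction, 3 with the Feature Extraction log ratio, and 31 and 6 with the table of 16 or 15 arrays, against 0 (874 unadjusted).

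The correlation was 0.549 with the Feature Extraction log ratio, 0.547 with either table, 0.635 with the background fit over all spots and 0.639 with the replicate 2 pair alone. Probes chosen on 1 control slide had pooled PVD2 medians of 1.44 for rises and −0.95 for falls. For rises these were 1.3 with between-array scaling, 1.27 with the Feature Extraction log ratio and 1.25 with the 15-array table, and for falls −0.66 with Cy3 alone and −0.83 with the background fit over all spots. Of the 16 PVD2 list medians, 12 moved with the background fit over all spots and 11 with the Feature Extraction log ratio or either table. With Cy3 alone, median centring or a filter on dim probes 9 moved, and with between-array scaling 8. Leaving out 1 PVD2 array moved 6 to 9, and array weights moved none. The ribosomal median turned to −0.0 with Cy3 alone, and glis2 in controls to 0.61 with the Feature Extraction log ratio and the 15-array table. The causes were not tested.

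Leaving out 1 whole embryo array at a time gave 559 to 1590 PVD2 calls, 747 to 2778 control calls, 0 to 20 differences, correlations of 0.685 to 0.832 and ribosomal medians of −0.01 (without PVD2 stage 10 replicate 1) to 0.15. A stage left with 1 array was assumed to vary like the others. Of 74 named probes called in PVD2 embryos, 46 kept the call whichever array was left out. Calls lost were 20 and 18 without PVD2 stage 10 replicates 1 and 2, 12 and 24 without PVD2 stage 9 replicates 1 and 2, and at most 1 without any control array. With no block, 19 named calls were lost, and with the background fit over all spots 22.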

Other observations

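A few further genes were looked at after their values were seen. Of these, ccnd1 is on none of the lists above, while ccne2 is on the cell cycle list and adamts1 on the cell adhesion list. The cyclin ccnd1 (cyclin D1), which drives entry into S phase, had levels of −2.42 and −2.37 in PVD2 embryos at stage 10 and −5.31 and −5.19 at stage 9, against −1.81 and −1.35 in controls at stage 10 and −4.97 and −4.45 at stage 9. It rose by 2.85 (SE 0.2, limma adjusted p = 0.000204) in PVD2 embryos and by 3.13 (SE 0.2, limma adjusted p = 9.53e-05) in controls, in the opposite direction to most cell cycle genes that changed.

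The cyclin ccne2 and the secreted metalloprotease adamts1 had lower levels in PVD2 embryos at both stages. Levels of adamts1 were −1.4 and −1.78 in PVD2 embryos at stage 10 and −2.5 and −0.94 at stage 9, against 0.91 and 1.56 in controls at stage 10 and 0.91 and 0.92 at stage 9. Levels of ccne2 were −0.2 and 0.73 in PVD2 embryos at stage 10 and −1.46 and 0.02 at stage 9, against 2.83 and 2.04 in controls at stage 10 and 1.21 and 0.72 at stage 9. At each stage all PVD2 levels of both genes lay below all control levels, a difference that was not tested here, and neither stage change passed the test in either morpholino.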
